A study of Ambystoma mexicanum with 8 samples.

Results

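The genes described here are the chemokines CCL5 and CCL3L1 in axolotl limb cells. All gene models whose symbol in the deposited gene names is CCL5 or CCL3L1 were taken, which gave 4 of the 61014 models in the matrix, 1 for CCL5 and 3 for CCL3L1. The CCL5 model is AMEX60DD301054222.1. The CCL3L1 models are AMEX60DD301054218.3, AMEX60DD301054219.1 and AMEX60DD201054221.2, called model A, model B and model C of CCL3L1 in what follows. They were chosen by their measured levels over the cell types of these same samples, so those levels are given as a description without a test.

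Chemokines are small secreted proteins that steer leukocytes along a gradient by binding G protein-coupled receptors on the target cell. In mammals CCL5 is made mainly by effector and memory T cells and natural killer cells, and it attracts T cells and monocytes. CCL3L1 is a human copy of CCL3, a chemokine that activated lymphocytes and macrophages release. Whether the axolotl models are direct counterparts of single mammalian genes is not known from the files.

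Cells of dissociated limbs of wild-type axolotls (Ambystoma mexicanum) were sorted as live cells of 2C DNA content, by Hoechst, calcein AM and propidium iodide, and sequenced with the 10x 3' single-cell method. The labels differ on the 2C gate, naming it non-dividing in the protocol but dividing in the text on the series. One group is intact limbs (samples 1, 2 and 4) and the other is limbs labelled contra (samples 1, 2, 4 and 5), which the series text describes as activated systemically, at day 14 after amputation. The labels say nothing of the animals behind a sample, so p-values measure the spread between these samples, which may be partly technical.

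The 7 samples held 35013 deposited cells, of which 34587 were kept after doublet calls, with 96617257 to 131485269 unique molecular identifiers (UMIs, counted molecules) per sample. Of 34895 distinct barcodes, 118 (0.338%) occurred in more than 1 library. Clustering without the 4 chemokine models gave 30 clusters, and 6 of them, numbers 3, 4, 11, 15, 16 and 19, were called T cell-like, with 9188 cells. Summed T cell markers reached 1589 to 1778 UMIs per 1000000 UMIs of the same cells (CPM) in T cell-like cells of each sample and 26.5 to 60.1 CPM in B cell-like cells. The T cell-like share of kept cells was lowest in contra sample 5 (15.1%) and highest in contra sample 1 (39.9%).

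CCL5 was a transcript of nearly every T cell-like cell. The kept cells held 262800 CCL5 UMIs, and T cell-like cells together with cluster 14 held 96.7% of them. Cluster 14 (939 cells) carries GZMA, CTSW, CST7 and KLRB1, genes of cytotoxic lymphocytes, with 5 of 7 T cell markers raised, but none of those markers was among its 10 leading genes, so it has no name. At least 1 CCL5 UMI was found in 99.3% of T cell-like cells and in 99.9% of cells of cluster 14. After every cell was thinned to 5000 UMIs, the share in T cell-like cells was 96.6% (exact binomial 95% interval 96.2 to 97.0) and that in erythroid-like cells was 4.00%.

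The CCL5 level differed among T cell subsets. As a mean over the 7 samples, each weighted alike, it was 3327 ± 715 CPM (SD) in cluster 19 (ICOS, a costimulatory receptor, and CD247, a T cell receptor chain, among its leading genes) and 2501 ± 248 CPM in cluster 11 (GZMA and ICOS). It was 2191 ± 206 CPM in cluster 4 (GZMA and CTSW), 2169 ± 880 CPM in cluster 15 (CTSW and ICOS) and 2096 ± 404 CPM in cluster 14. Clusters 19 and 11 lay above cluster 4 in 7 of 7 samples and cluster 15 in 2 of 7. The ranges over samples overlapped between each of these clusters and the next. With UMIs pooled over samples cluster 15 came second, at 2761 CPM, since intact sample 2 and contra sample 1, which hold many of its cells, had the highest levels there (3644 and 3016 CPM).

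Cluster 16, which carries 7 of 10 cell cycle markers, had 1063 ± 117 CPM of CCL5 (887 to 1247 over samples). The naive-like cluster 3, marked by LEF1 and CCR7, which are a transcription factor and a homing receptor of resting T cells, had 682 ± 95.9 CPM (521 to 758 over samples). The sample ranges of clusters 14, 16 and 3 did not overlap. In cells thinned to 5000 UMIs, CCL5 was found in 92.6% of cluster 3 and in 99.3% of cluster 4.

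The CCL3L1 models were held by fewer T cell-like cells, with large amounts in some of them. Thinned to 5000 UMIs, model A was found in 22.6%, model B in 11.1% and model C in 17.0% of T cell-like cells, against 0.612%, 0.249% and 0.181% of erythroid-like cells. Without thinning the T cell-like shares were 32.1%, 17.6% and 29.7%. The T cell-like cells with the most model A, 1% of them, held 35.0% of its T cell-like UMIs, and a single cell held up to 576. For CCL5 the same 1% held 5.80%.

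Of the 7 clusters, cluster 11 had the highest mean over samples for each CCL3L1 model. Model A had 992 ± 238 CPM in cluster 11 and 735 ± 419 CPM in cluster 15, then 302 CPM in cluster 19, 245 CPM in cluster 16, 212 CPM in cluster 14, 124 CPM in cluster 4 and 50.2 CPM in the naive-like cluster 3. Model B had 377 ± 133 CPM in cluster 11 and 268 ± 62.8 CPM in cluster 19, then 192 CPM in cluster 15, 179 CPM in cluster 14, 50.7 CPM in cluster 16, 41.8 CPM in cluster 4 and 2.45 CPM in cluster 3. Model C had 223 ± 73.7 CPM in cluster 11 and 206 ± 128 CPM in cluster 15, then 94.7 CPM in cluster 14, 77.6 CPM in cluster 16, 77.1 CPM in cluster 19, 71.5 CPM in cluster 4 and 14.3 CPM in cluster 3. Cluster 11 lay above cluster 4 in 7 of 7 samples for each model, and cluster 3 was the lowest on average for each. Neighbours in these orders overlapped over samples, except clusters 14 and 16 and clusters 4 and 3 for model B and clusters 4 and 3 for model C. Cluster 15 alone spanned 154 to 1114 CPM of model A.

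**Figure D1:**
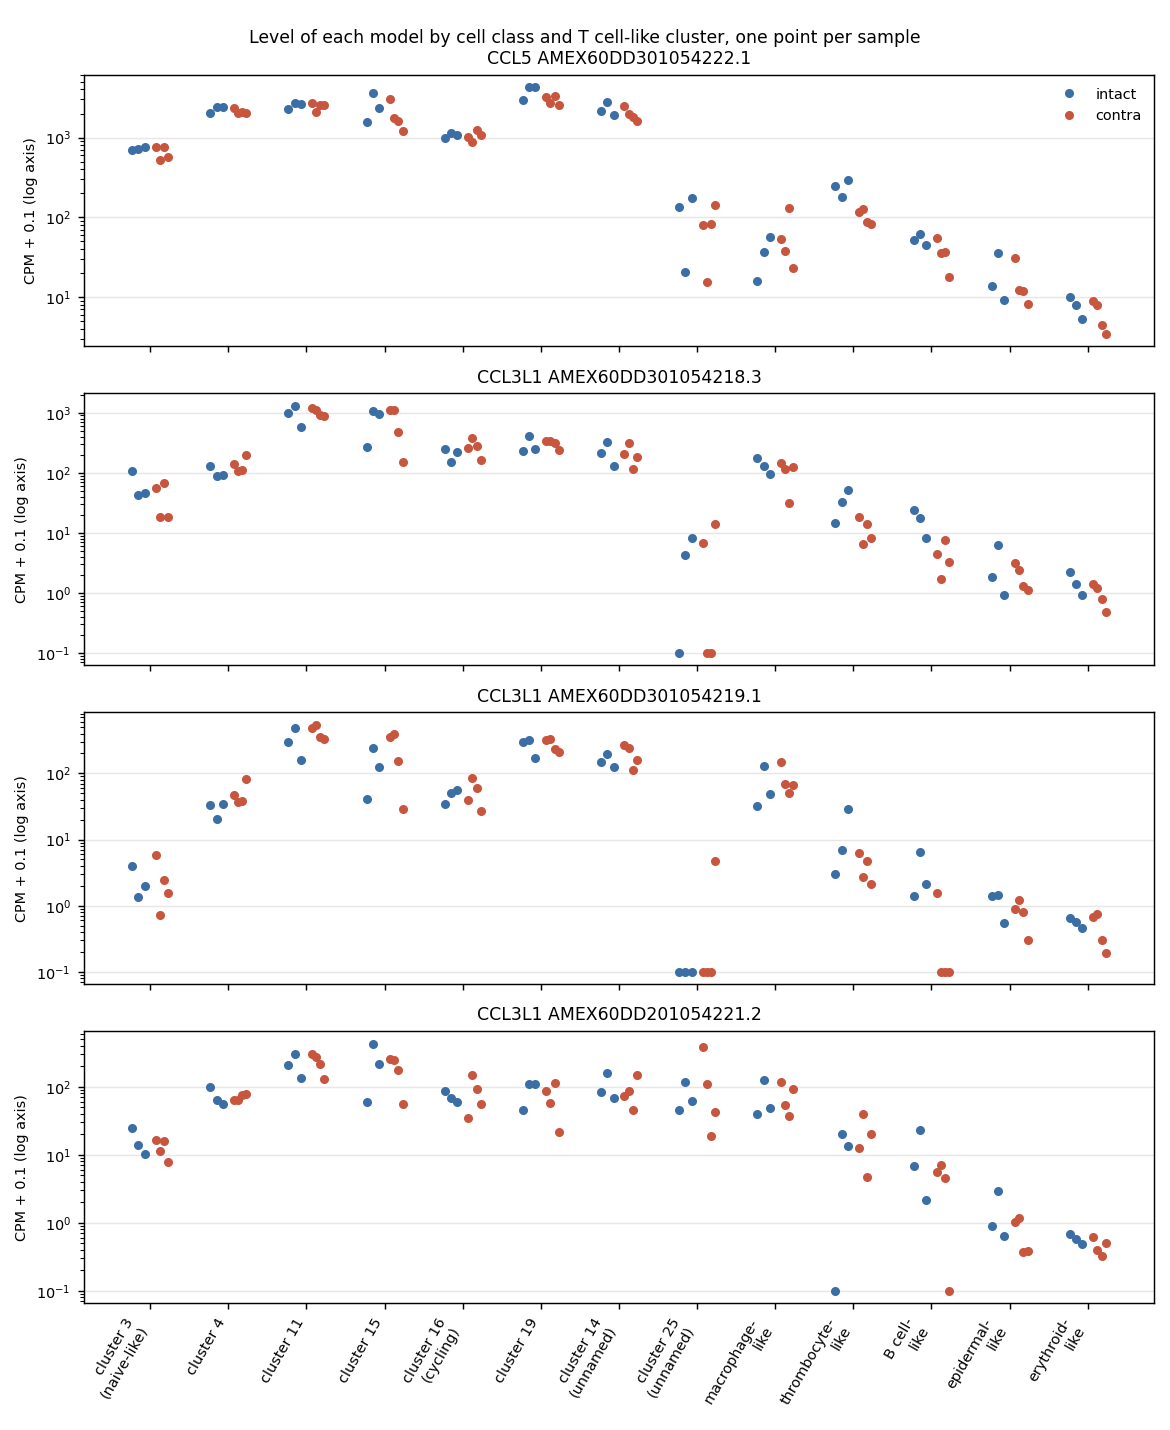
Level of CCL5 and the CCL3L1 models (CPM plus 0.1, log axis) in each T cell-like cluster, clusters 14 and 25 and 5 other cell classes, with 1 point per sample, intact in blue and contra in red. CCL5 stands at 521 CPM or more in every T cell-like cluster of every sample, while model B falls to 5.76 CPM or less in the naive-like cluster 3.

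Outside T cell-like cells and cluster 14 the models parted in macrophage-like cells and cluster 25, and in some samples of cluster 23. Thrombocyte-like cells had 163 CPM of CCL5 and 3.30 CCL5 UMIs per CCL3L1 UMI. B cell-like cells had 51.2 CPM and 1.97, and both ratios lay within the range of the T cell-like clusters. Macrophage-like cells (399 cells, with C1QA and C1QB among the leading genes) had 115 CPM of model A, 80.0 CPM of model B and 75.7 CPM of model C, and 49.3 CPM of CCL5. That is 0.182 CCL5 UMIs per CCL3L1 UMI, against 3.47 in T cell-like cells and 1.47 to 9.80 over the T cell-like clusters. Cells with 3 or more UMIs of the T cell receptor genes CD3E or CD3G held most of the CCL5. Without them, a step chosen after the data were seen, 382 macrophage-like cells had 120.2 CPM of model A, 83.6 CPM of model B and 78.8 CPM of model C but 16.03 CPM of CCL5 (106 of 344 UMIs), and the ratio was 0.0567. Thinned shares of macrophage-like cells were 12.1%, 11.3% and 15.1% for models A, B and C, and 9.23% for CCL5, CD3 cells included. Cluster 25 (111 cells, unnamed, led by SPACA4 and SCGN, with NCR3 and TIGIT among its leading genes) held 234 UMIs of model C, 9 of model A and 1 of model B. Model C was present in 7 of 7 samples of cluster 25, between 18.8 and 389.5 CPM, whereas models A and B did not exceed 13.9 and 4.64 CPM there. A single cell held 33.3% to 83.7% of the model C UMIs of cluster 25 in each sample. In the unnamed cluster 23, thinned shares were 9.17%, 17.5% and 8.33% for models A, B and C, and 12.5% for CCL5. Without CD3 cells, model B had 3, 7 and 0 UMIs there in intact samples 1, 2 and 4, against 12, 1 and 6 of CCL5. In contra samples 1, 2, 4 and 5 it had 0, 2, 24 and 13 UMIs, against 1, 2, 3 and 3 of CCL5.

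Erythroid-like and epidermal-like cells held low amounts of all 4 models. Erythroid-like cells had 7.52 CPM of CCL5, and their level of any model was between 0.927% and 4.72% of that in all cells of the same sample. In epidermal-like cells it was between 1.71% and 9.56%. They carried 3.48 CCL5 UMIs per CCL3L1 UMI, as did all kept cells together (3.48), and epidermal-like cells carried 4.47. Model A took 58.0% of the CCL3L1 UMIs of erythroid-like cells and 58.7% of those of all kept cells. Free RNA in droplets can give such counts, and its part in them was not tested.

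The share of each model in the CCL3L1 UMIs differed between clusters. Model B took 3.90% of them in cluster 3, 16.9% in cluster 4, 23.4% in cluster 11, 37.5% in cluster 14 and 41.8% in cluster 19. In single samples its share was 2.06 to 7.47% in cluster 3 and 32.6 to 52.4% in cluster 19, ranges that do not overlap. Model C took 95.9% in cluster 25. How similar the transcripts are was not tested, and the values of single models are uncertain to that extent.

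**Figure D2:**
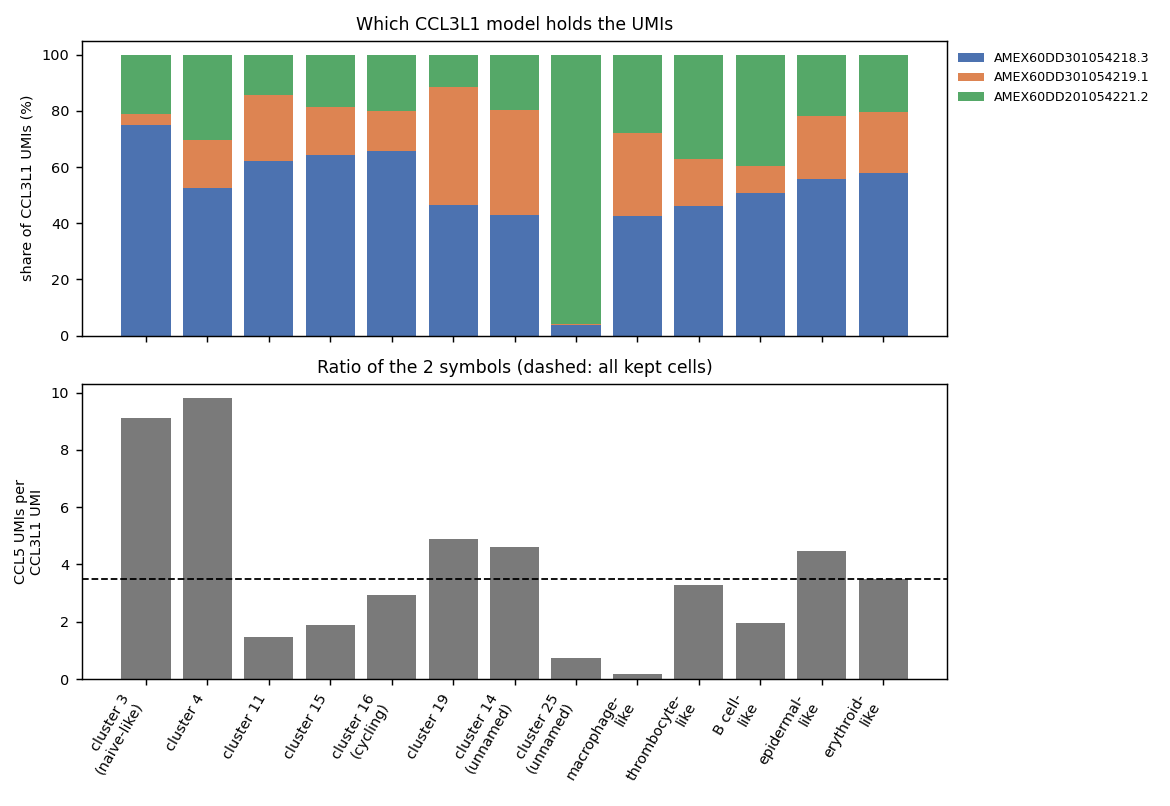
Upper panel, percent of the CCL3L1 UMIs that each of the 3 models holds in each cluster or class. Lower panel, CCL5 UMIs per CCL3L1 UMI, with the value of all kept cells (3.48) as a dashed line. Cluster 25 is almost entirely model C (95.9%), and macrophage-like cells, CD3 cells included, have the lowest ratio (0.182).

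The 3 CCL3L1 models tended to occur in the same cells. Of T cell-like cells thinned to 5000 UMIs, 65.4% held none of them, 22.3% held 1, 8.47% held 2 and 3.86% held all 3. Model A was found in 65.4% of the cells with model B and in 17.3% of those without it. The odds ratio of this pair was 6.44, 14.4 and 8.60 in the intact samples and 8.63, 14.6, 5.18 and 9.70 in the contra samples, in the order of their numbers (intact 1, 2 and 4, contra 1, 2, 4 and 5), which all later values follow. It lay above 1 in each sample, and the groups overlapped. Compared within clusters, so that the subsets' own levels do not enter, its median over samples was 7.48 (4.05 to 9.58). The within-cluster medians were 3.64 (2.63 to 4.64) for models A and C and 2.78 (1.94 to 4.25) for models B and C. In cluster 14, where 45.8% of the thinned cells held none of the models, the median for models A and B was 6.86 (2.90 to 13.9). Cells of 1 sample are not replicates, and no test was made over cells. Whether UMIs of 1 CCL3L1 model were counted for another, similar model was not tested, and the odds ratios are uncertain to that extent.

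T cell-like cells with any CCL3L1 UMI also held more CCL5. In thinned cells the mean CCL5 count with CCL3L1 was 9.87, 14.9 and 12.5 UMIs in the intact samples, against 6.07, 8.20 and 8.66 without. In the contra samples it was 13.8, 11.3, 11.3 and 11.1 UMIs, against 7.92, 6.93, 6.93 and 6.59. The ratio lay above 1 in 7 of 7 samples, with a median of 1.64 (1.45 to 1.82). Within single clusters the ratio was smaller in cluster 4 (median 1.09) and cluster 19 (median 1.10, above 1 in 6 of 7 samples) and was 1.36 to 1.48 in the other T cell-like clusters and in cluster 14.

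**Figure D3:**
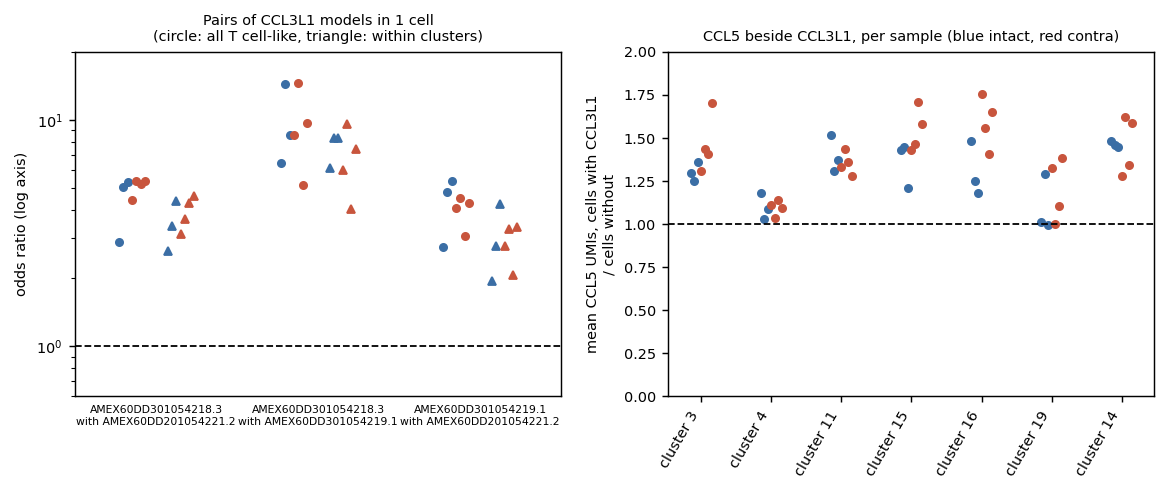
Left, odds ratio (log axis) of finding 2 CCL3L1 models in 1 T cell-like cell, per sample, over all these cells (circles) and within clusters (triangles). Right, mean CCL5 UMIs of cells with CCL3L1 divided by that of cells without, per sample and cluster. Every odds ratio lies above 1, the lowest within clusters being 1.94, and the ratios of cluster 4 lie between 1.03 and 1.18.

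Across the 30 clusters, the genes whose level was most like that of CCL5 were LCK, a T cell receptor kinase (Pearson r = 0.97 of log2(CPM + 10)), LIM2 (r = 0.96), CTSW, a protease of cytotoxic cells (r = 0.96), CYTIP, STAT4, CD3E, SYTL3 and TOX2. Those most like model A were model B (r = 0.95), BDH1, CTSW, CRTAM, IL18RAP, CCL5 (r = 0.92), CD40LG and LTA. For model B they were model A, FASLG, the ligand of a death receptor (r = 0.89), LTA, TNFRSF9, TNFSF14, RORA, KLHL13 and model C. For model C they were EVI2A (r = 0.95), RUNX2 (r = 0.94), BDH1, GPR174, GRAP2, TNFRSF9 and LPXN. Clusters share libraries and depth, so these values describe the clusters and carry no test.

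Of the chemokine receptors, a model of CCR1, which binds both ligands in mammals, had 47.3 CPM in macrophage-like cells (AMEX60DD201037937.1). Another CCR1 model (AMEX60DD301037938.1) had 0.716 CPM there. In T cell-like cells CXCR3 had 231 CPM, CCR7 96.4 CPM, CXCR6 50.9 CPM and CXCR4 22.1 CPM. CXCR4 was higher in macrophage-like (102 CPM), thrombocyte-like (74.6 CPM) and B cell-like cells (50.9 CPM). CXCR6 had 57.1 CPM in thrombocyte-like cells, and CXCR3 had 335 CPM in cluster 25. A model named CCR4 (AMEX60DD201037939.1) had 237 CPM in macrophage-like cells and 235 CPM in cluster 25. The 12 other chemokine ligand models were low in T cell-like cells, where only 1 passed the filter on low counts. Among them CCL28 (48.5 CPM), CCL19 (33.4 CPM) and CXCL14 (20.8 CPM) stood in epidermal-like cells, and CCL20 had 90.8 CPM in cluster 25.

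Contra was then compared with intact limbs to ask whether limbs activated systemically hold other levels of these chemokines. No member passed the test in T cell-like cells. CCL5 was at 1414, 1995 and 1733 CPM in intact limbs and at 1937, 1524, 1616 and 1475 CPM in contra limbs. Model A was at 266, 352 and 240 CPM in the intact and at 385, 313, 239 and 214 CPM in the contra samples. Contra sample 1 was the highest for model A and contra sample 5 the lowest, and the groups overlapped for both chemokines. Model C was at 81.4, 121 and 69.9 CPM in the intact and at 103, 96.5, 82.4 and 57.5 CPM in the contra samples, again overlapping.

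Model B of CCL3L1 in T cell-like cells was at 67.4, 109 and 55.6 CPM in intact limbs and at 137, 134, 75.2 and 76.6 CPM in contra limbs. The groups overlapped only through intact sample 2. The log2 fold change, contra over intact, was 0.45 ± 0.28 (SE), and edgeR's quasi-likelihood test gave an adjusted p of 1.00. It was -0.07 ± 0.18 for CCL5, 0.01 ± 0.23 for model A and -0.09 ± 0.23 for model C, each with an adjusted p of 1.00. Of 21175 gene models tested in T cell-like cells, 0 passed (0%), 389 had an unadjusted p under 0.05 (1.84%), and DESeq2 called 0. The groups did not overlap for 2.32% of those models and for 0 of the 4 chemokine models. With the sample number as a block, model B was at 0.58 ± 0.13 with an unadjusted p of 0.00246 and an adjusted p of 0.487. Contra sample 5 has no partner there and drops out.

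The share of T cell-like cells with model B, thinned, was 8.59%, 10.2% and 9.04% in intact limbs and 13.5%, 14.0%, 10.8% and 10.7% in contra limbs. These groups did not overlap, by a small margin in a random thinning. How many of all gene models part in this way was not counted. The means were 9.29% ± 0.849 (SD, n = 3) and 12.2% ± 1.75 (SD, n = 4). The two-sided exact permutation p was 0.0571, the smallest that 4 against 3 samples can give with this test, and 0.229 after adjustment over the 4 models. The shares of model A (21.4% and 22.4%), model C (15.8% and 17.4%) and CCL5 (96.5% and 96.4%) had exact permutation p values of 0.629, 0.286 and 1. Without thinning the share of model B was 15.6% in intact and 18.6% in contra samples, with an exact permutation p of 0.286. With doublet calls kept the thinned share was 9.45% ± 1.44 (SD) and 12.0% ± 2.05, with an exact permutation p of 0.171.

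**Figure D4:**
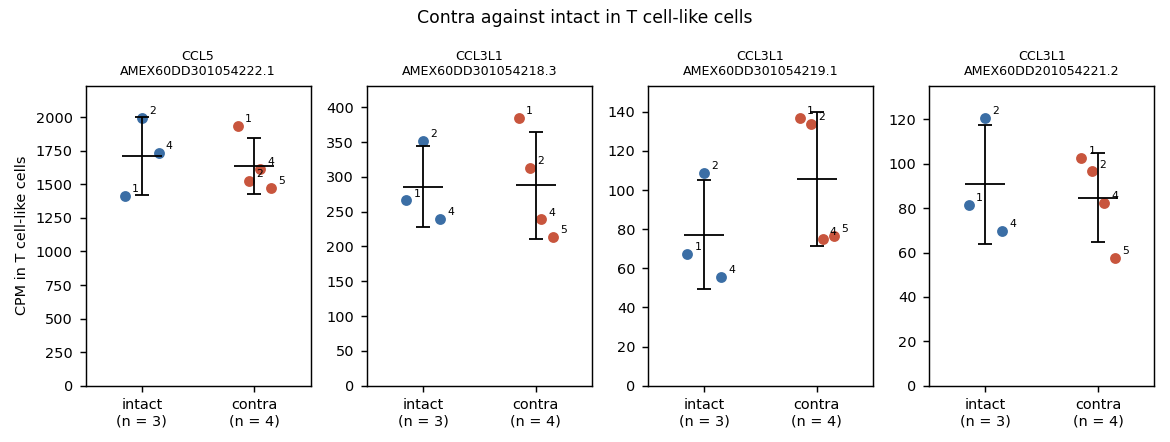
CPM of each model in T cell-like cells of the intact and contra samples, with sample numbers, and the mean and SD in black. For CCL5 and models A and C the points of the groups interleave, and for model B intact sample 2 at 109 CPM lies above 2 of the 4 contra samples.

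The makeup of the T cell-like class differed between samples. The naive-like cluster 3 took 26.6% to 44.0% and the cycling cluster 16 took 3.62% to 16.3% of T cell-like cells. When the 6 clusters were weighted alike in each sample, CCL5 was at 2166 ± 380 CPM (SD, n = 3) in intact and 1856 ± 254 CPM (SD, n = 4) in contra samples (exact permutation p 0.229). Model B was then at 132 ± 49.1 and 173 ± 55.9 CPM (SD, n = 3 and 4, exact permutation p 0.343).

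In single T cell-like clusters, model B separated the groups in cluster 4. It was at 33.6, 20.2 and 34.3 CPM in intact limbs and at 47.3, 36.9, 37.7 and 82.5 CPM in contra limbs. The contra samples were all higher, as for 1.34% of the 14492 gene models tested in this cluster. The log2 fold change was 0.74 ± 0.31 (SE), and edgeR gave an unadjusted p of 0.0339 (1.92% of models were under 0.05) and an adjusted p of 1.00. CCL5 in cluster 19 was at 2975, 4312 and 4287 CPM in the intact and at 3205, 2694, 3284 and 2532 CPM in the contra samples, which overlapped through intact sample 1. Its log2 fold change was -0.43 ± 0.16 and edgeR gave an adjusted p of 0.999.

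Over all 14 sums fitted, the 4 models gave 53 values that passed the filter on low counts, and 0 of these passed at an adjusted p of 0.05 by edgeR. An unadjusted p under 0.05 was found for 5 of them, against 3.25% of the values of all gene models in the same sums. With the sample number as a block it was found for 14 of 53, against 6.93% of all values, and again 0 passed by edgeR. No overlap between intact and contra was seen for 3 of the 53, against 3.65% of all values. The sums share cells, so these values are not independent. DESeq2 called 1 member value, CCL5 in thrombocyte-like cells. In all kept cells the log2 fold changes were -0.33 ± 0.50 for CCL5, -0.22 ± 0.59, 0.16 ± 0.59 and -0.36 ± 0.54 for models A, B and C. In macrophage-like cells they were 0.65 ± 0.50 for CCL5, -0.33 ± 0.39, 0.25 ± 0.47 and 0.05 ± 0.43 for models A, B and C. Without CD3 cells the log2 ratio of the group means of CCL5 there was 0.097, and contra sample 4 kept 1 CCL5 UMI. In cluster 14 they were -0.19 ± 0.21 for CCL5, -0.11 ± 0.32, 0.35 ± 0.29 and -0.22 ± 0.34 for models A, B and C.

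CCL5 in thrombocyte-like cells, a class of 454 cells named from 3 of 4 markers, was at 248, 178 and 290 CPM in intact limbs and at 116, 127, 86.5 and 83.0 CPM in contra limbs. All contra samples were lower, as for 3.64% of the 5515 gene models tested there. The log2 fold change was -1.13 ± 0.22 (SE), and edgeR gave an unadjusted p of 9.24e-05 (4.46% of models were under 0.05) and an adjusted p of 0.170. The adjusted p was 0.0183 by DESeq2, 0.00632 by edgeR without intact sample 2 and 2.17e-06 by edgeR without the filter on low counts. Summed T cell markers were at 121 to 141 CPM in the intact samples, with 6 of 8 marker models above 0 in each. In the contra samples they were at 52.6 to 98.2 CPM, with 5 or 6 above 0. Among the contra samples they did not follow CCL5, being lowest in contra sample 1 (52.6 CPM) and highest in contra sample 4 (98.2 CPM). Cells with 3 or more CD3E or CD3G UMIs were then left out, a step chosen after the data were seen. CCL5 in the remaining cells was at 119 to 155 CPM in the intact and 52.7 to 120.3 CPM in the contra samples. The groups overlapped only through contra sample 1 (120.3 CPM) and intact sample 2 (119 CPM). Their means were 137 CPM in intact and 79.3 CPM in contra samples, a log2 ratio of -0.79. The step left 436 of the 454 cells, and the part of T cells in the difference was not tested.

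Model A in B cell-like cells was at 24.1, 17.5 and 8.11 CPM in intact limbs and at 4.40, 1.60, 7.50 and 3.18 CPM in contra limbs. All contra samples were lower, as for 1.34% of the 9955 gene models tested there. The log2 fold change was -2.06 ± 0.44 (SE), and edgeR gave an unadjusted p of 4.48e-04 (1.41% of models were under 0.05) and an adjusted p of 1.00. The adjusted p by edgeR was 0.0916 with the sample number as a block and 1.18e-07 without the filter on low counts. In intact sample 1 a single cell held 46.0% of these UMIs, in intact sample 2 34.7% and in contra sample 4 66.7%. Summed T cell markers in B cell-like cells overlapped between the groups (41.2 to 55.2 CPM in intact and 26.5 to 60.1 CPM in contra samples). The groups of model A stayed apart without cells that held 3 or more CD3E or CD3G UMIs. That step left 1900 of 1928 cells and 313 of 329 model A UMIs, so it could change little. The part of T cells in the difference was not tested. Without those cells model A rested on 142, 121 and 16 UMIs in the intact and on only 24, 3, 4 and 3 UMIs in the contra samples.

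The genes of the lists set beside the chemokines did not pass the test in T cell-like cells by edgeR either. Of the other chemokine receptors, 6 models were tested and 0 passed, with 1 log2 fold change above 0 and 5 below. Of the cytotoxic effector genes, 17 models were tested and 0 passed, with 12 log2 fold changes above 0, 5 below, and a median of 0.10, while the median over all models tested was 0.0036. The GZMA model with the most UMIs, AMEX60DD301042100.2, had 1465 ± 474 CPM (SD, n = 3) in intact and 1952 ± 1130 CPM (SD, n = 4) in contra samples. Of the 8 models of resting T cell genes tested, 0 passed and all 8 were below 0, with a median of -0.21, among them LEF1 (225 ± 49.8 and 195 ± 10.6 CPM) and IL7R, the receptor of a survival cytokine (28.3 ± 7.91 and 23.1 ± 5.02 CPM). Among T cell-like clusters LEF1 and IL7R were highest in the naive-like cluster 3 (525 and 47.5 CPM), whose share differed between samples. Clusters were not weighted alike for these genes. Of 14 models of transcription factors linked to effector lymphocytes or to the mammalian CCL5 promoter, 0 passed, with 7 above and 7 below 0. IRF1, an interferon-induced factor, was at 98.3 ± 26.4 and 66.0 ± 21.8 CPM.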

How the data were processed

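Single-cell RNA was measured in 7 samples of 2C-sorted limb cells, 3 intact and 4 contra, and intact sample 5 of the labels was not analysed here. The authors deposited 1 matrix of UMI counts, not normalized, with a row for each cell or gene model. The submitters' processing notes name kallisto 0.48.0 and Seurat 4.2.0, and the roles of these tools, the build and the annotation were not given in the sources used here. Each cell in the matrix held at least 3003 UMIs, and cell names carry the sample. No sequence or position is printed for the gene models.

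Scrublet (scanpy 1.11.5, expected rate 5%) was run on each sample for doublets, and 426 cells (1.22%) above a score of 0.25 were removed. Clusters were found from 2000 variable genes, the 4 chemokine models left out, on log values scaled to 10000 counts and 30 principal components (leidenalg 0.10.2, 15 neighbours, resolution 1). A cluster was named when at least 3 markers and 60% of a class's markers lay 1 log2 unit above the median cluster (CPM + 10) in at least 10% of its cells, with 1 among the 10 leading genes. It stayed unnamed when another class also reached this share of markers or had more of them among the leading genes. Lists for T cell subsets and cycling cells did not count as classes here. These names were rebuilt here and may not match the cell types of the study.

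Counts were summed per sample and class, where at least 3 samples per group held at least 20 cells, and tested with edgeR 4.0.16 (quasi-likelihood, TMM, filterByExpr, two-sided, Benjamini-Hochberg). Levels are UMIs per 1000000 UMIs of the same cells. Shares of cells were compared by a two-sided exact permutation test over samples, after thinning to 5000 UMIs, which left out 187 T cell-like cells. The fit was tested on simulated T cell-like sums, with a fixed spread between samples and changes set only in models with many UMIs. It estimated these known fold changes closely and called the large ones, but missed many moderate ones. A change of moderate size can therefore fail to pass here. Changes in models with few UMIs or in the smaller classes were not simulated, and large ones can fail to pass there. Intervals cover counting error only. The members, marker lists and gene lists were chosen with earlier results of these data known. Named genes are the members, the 8 models with a symbol and at least 200 UMIs most like each over the clusters, which were not divided further, and the 4 models of each list with the most UMIs in T cell-like cells. One gene that this rule names is not reported here. Other genes named from a cluster's leading genes or a class's levels were chosen after their values were seen. Same-numbered samples deviated together from their group means (correlations of 0.188 to 0.569 in T cell-like cells and 0.401 to 0.540 in all kept cells). Differently numbered samples reached at most 0.147 in T cell-like cells. In all kept cells, however, intact sample 4 and contra sample 5 reached 0.563. In B cell-like cells intact sample 2 and contra sample 5 reached 0.291, while the samples numbered 4 were at 0.173. In macrophage-like cells the samples numbered 1 and 4 were at -0.0273 and -0.0250, while intact sample 4 and contra sample 1 reached 0.213. In cluster 15 they were at -0.0226 and -0.122, while intact sample 1 and contra sample 4 reached 0.233. Pairs by number are therefore not settled in all kept, B cell-like or macrophage-like cells or in cluster 15. Nor are they in erythroid-like and thrombocyte-like cells, with samples numbered 4 at 0.0927 and 0.0186 but differently numbered ones up to 0.234 and 0.120. The same holds for clusters 3, 11 and 16. Samples numbered 4 were at 0.0680, 0.108 and 0.0936 there, and differently numbered ones reached 0.188, 0.178 and 0.0951. It also holds for cluster 19 (samples numbered 1 at 0.0779, differently numbered ones up to 0.134) and epidermal-like cells (samples numbered 4 at 0.200, differently numbered ones up to 0.280). The main edgeR fits and the exact tests of intact against contra took the samples as unpaired in every class and cluster. The block of same-numbered samples was an alternative. Alternatives were DESeq2 1.42.0 and its size factors, no filter, the block, leaving out each sample, keeping doublet calls, leaving out haemoglobin models, another resolution and the chemokine models among the variable genes.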

Additional observations from a re-analysis of the deposited data

Results flagged for a closer look

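Model B of CCL3L1 (AMEX60DD301054219.1) in B cell-like cells was at 1.47 CPM in contra sample 1 and at 0 CPM in contra samples 2, 4 and 5, and a check for outliers marked it. With the other samples at 0 this check marks any value above 0, so the mark says nothing of the size. Contra sample 1 also held more B cell-like cells, 432 against 113 to 158 in the other contra samples. The same check was made on 48 sets of 4 contra samples and marked this 1, while chance marks about 1 in 20.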

How the results depend on the processing

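No gene model passed in any of the 14 sums by edgeR, nor in any with DESeq2's size factors. Without the filter on low counts the counts were 197 in T cell-like, 39 in B cell-like, 89 in macrophage-like, 84 in thrombocyte-like, 367 in epidermal-like and 378 in erythroid-like cells, and 40, 104, 68, 42, 15, 73 and 36 in clusters 14, 3, 4, 11, 15, 16 and 19. DESeq2 called 14 in all kept cells, 1 in macrophage-like, 2 in thrombocyte-like, 66 in epidermal-like and 11 in erythroid-like cells, and 2, 1 and 1 in clusters 3, 11 and 19. With the replicate block there were 2 in T cell-like, 4 in B cell-like, 5 in thrombocyte-like and 1 in erythroid-like cells, and 1, 1, 5, 10, 3 and 1 in clusters 14, 3, 4, 11, 16 and 19. Keeping doublet calls gave 1 in thrombocyte-like cells. Leaving out each sample in turn gave 0 to 1 in T cell-like, 0 to 8 in B cell-like, 0 to 3 in macrophage-like, 0 to 16 in thrombocyte-like and 0 to 11 in erythroid-like cells. The same step gave 0 to 1, 0 to 11, 0 to 1, 0 to 2, 0 to 1, 0 to 1 and 0 to 4 in clusters 14, 3, 4, 11, 15, 16 and 19. None of the members passed under the block. Members that passed elsewhere were CCL5 in thrombocyte-like cells (DESeq2, no filter, without intact replicate 2) and, without the filter, model A in B cell-like (log2 fold change -2.16) and thrombocyte-like cells (-1.59) and in cluster 3 (-0.71).

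Of the member log2 fold changes under alternatives, 481 kept their sign and side of the threshold, 6 newly passed and 48 changed sign, none of these past the threshold. In T cell-like cells model C was at 0.079 with the block, and model A at -1.83e-05 with DESeq2 and -0.012 without the filter. Model C in macrophage-like cells was at -0.0028 without the filter and -0.052 with the block, and in cluster 15 models C and A were at 0.27 and 0.35 with the block. Leaving out each sample in turn gave, for model A, -0.93 to 0.069 in all kept cells, -0.24 to 0.15 in T cell-like cells, and -0.40 to 0.23, -1.03 to 0.0032, -0.16 to 0.27, -0.41 to 0.29 and -0.10 to 0.30 in clusters 14, 3, 11, 15 and 19. For model B it gave -0.51 to 0.45 in all kept cells, -0.24 to 1.06 in macrophage-like cells, and -0.15 to 0.34 and -0.21 to 0.16 in clusters 16 and 19. For model C it gave -0.27 to 0.073 in T cell-like cells, -0.33 to 0.74 in macrophage-like cells, and -0.53 to 0.19, -0.57 to 0.21, -0.28 to 0.26, -0.16 to 0.31, -0.69 to 0.42 and -0.22 to 0.39 in clusters 14, 3, 4, 11, 15 and 16. For CCL5 it gave -0.22 to 0.0042 in T cell-like cells, and -0.17 to 0.037 and -0.098 to 0.089 in clusters 11 and 16. The causes were not tested.

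The share of T cell-like cells with a UMI, contra minus intact, was -2.74 percentage points for model C and -1.50 for model A without thinning. For CCL5 it was 0.403 over same-numbered pairs and 0.439 with doublet calls kept. Without single samples it ranged from -0.178 to 2.55 for model A and from -0.513 to 0.403 for CCL5, and the share of model B stayed higher in contra (2.36 to 3.48). The within-cluster odds ratios were 17.9 (A and B), 13.7 (A and C) and 6.72 (B and C) at 2 or more UMIs, and 5.01 (A and B) and 2.80 (A and C) without thinning. Weighting clusters or samples alike and leaving out CD3 cells were chosen after seeing the data. With 3 against 4 samples the exact test cannot go below 0.0571. Cells of clusters such as 25 (111 cells) give few UMIs per sample.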

Other observations

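The difference between contra and intact limbs was itself compared between cell classes, as log2(CPM + 1) of a class minus that of T cell-like cells, or of a T cell-like cluster minus that of cluster 4, in each sample. Over 36 such comparisons the smallest two-sided exact permutation p was 0.0571, and 0.686 after adjustment. That p, the smallest the design allows, was reached by model A of CCL3L1 in B cell-like cells (AMEX60DD301054218.3, a difference of -1.77 in log2 units) and by CCL5 in thrombocyte-like cells (-1.14). Model B in B cell-like cells (AMEX60DD301054219.1) reached it too, but with 0 UMIs in contra samples 2, 4 and 5 its size depends on the added 1 and is not given. Model A also had few UMIs in B cell-like cells of the contra samples.

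CXCL8, a ligand that attracts granulocytes in mammals, had 77.0 CPM in macrophage-like cells and 76.2 CPM in cluster 23 for the model AMEX60DD301044139.1. Cluster 23 (146 cells, unnamed, with PRF1, MMP2 and TCN1 among its leading genes) also held 42.7 CPM of model B of CCL3L1, with 0 to 87.6 CPM over the samples.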
